A study of Mus musculus with 4 samples.

Results

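The genes described here encode enzymes and complexes that write, erase or read chemical marks on chromatin. They are 52 genes chosen by name, out of 18526 genes with a row in either of 2 deposited tables, and all 52 had a row in both. By role they fall into 7 subunits of Polycomb repressive complex 2 (PRC2), 11 of Polycomb repressive complex 1 (PRC1), 9 histone demethylases, 8 histone methyltransferases, 4 acetyltransferases, 7 deacetylases and 6 enzymes of DNA methylation. They were listed by name, with no threshold on a measured value. The methyltransferases of the Trithorax group proper (the Kmt2 family) are not among them and are given below with a further list. The RNA is that of microglia, brain-resident macrophages, which were sorted by fluorescence from the cortex of C57BL/6 mice at embryonic day 14. One genotype was Arid1acKO, a conditional knockout of Arid1a, and the other Arid1afl/fl, the floxed control. Values were analysed for 1 knockout library (replicate 2) and 2 control libraries (replicates 5 and 6), and knockout replicate 1 was not analysed here. The Cre driver, the share of cells that recombined, and whether a sample was 1 embryo or a pool are not given in the sources used here.

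Polycomb complexes keep developmental genes silent. PRC2 methylates a lysine of histone H3 through its catalytic subunit Ezh1 or Ezh2, held by Eed and Suz12, and PRC1 ubiquitinates histone H2A through Rnf2 or Ring1, with a Pcgf protein and, in some forms, a Cbx protein that binds the PRC2 mark. Trithorax-group proteins, among them the BAF remodelling complex that contains Arid1a, oppose Polycomb at many genes, and acetyltransferases such as p300 and CBP act at enhancers while deacetylases remove their mark. In microglia, chromatin regulators of this kind are known for holding cell identity and for tuning the inflammatory response.

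The libraries held 17262261 counted reads in the knockout, 18608979 in control 5 and 13774075 in control 6. Levels are given in CPM, the count relative to the library total after scaling by edgeR's TMM factors, and 1 read was worth between 0.0537 and 0.0726 of an unscaled CPM. Arid1a itself had 1258 reads in the knockout against 1952 and 1760, the lowest of the 3 (log2 fold change -0.80, SE 0.41, edgeR quasi-likelihood adjusted p = 0.901). Reads of exons outside the floxed part are included. All 12 microglia markers were at 55.6 CPM or more in every library, with a summed level of 14637 CPM in the knockout, 20133 in control 5 and 27818 in control 6. Siglech had 58.3 CPM against 918 and 1057 and passed the test (edgeR, adjusted p = 0.0324), and Tmem119 had 583 against 1535 and 2266. For other cells, 8 of 8 border macrophage markers summed to 637, 695 and 1062 CPM in the knockout, control 5 and control 6, in that order (Cbr2 15.5, 3.30 and 4.52, Stab1 244, 302 and 654, and Lyve1 and Cd163 at 0 reads in control 5). In the same order, 8 of 9 monocyte and neutrophil markers summed to 272, 249 and 194 CPM (Plac8 68.9, 14.7 and 31.7, Ccr2 93.0, 120 and 138, and Mpo at 0 reads in control 5). The 12 neuronal markers summed to 173, 228 and 252 CPM (Neurod6 41.8, 81.7 and 65.1, Bcl11b 7.39, 18.0 and 15.8, and Tbr1 at 0 reads in control 5), and 8 of 10 neural progenitor markers to 207, 138 and 138 (Vim 101.9, 36.5 and 18.4, Nes 97.0, 97.0 and 113, with Sox1 at 0 in control 5 and Neurog2 at 0 in both controls). The 8 endothelial markers summed to 41.3, 44.0 and 37.9 CPM (Pecam1 3.89, 20.5 and 27.3, Egfl7 14.2, 0.168 and 1.41, with Esam at 0 in both controls and Cldn5 at 0 in control 6), and 6 of 9 erythroid markers to 40.9, 37.8 and 46.5 (Hba-a1 27.6, 28.3 and 35.1). The part of these cells in the values below was not tested, and in bulk RNA fewer cells of a type and less RNA per cell cannot be told apart.

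With 1 knockout and 2 control libraries, the spread comes from the controls alone, and no member passed the test. Of the 51 members tested, 0 had an adjusted p under 0.05 (edgeR quasi-likelihood), where 0.0394% of all 15236 genes tested did (0.0131% as higher and 0.0263% as lower), and the smallest adjusted p of a member was 0.713. Before adjustment 2 members, Eed and Crebbp, had p under 0.05, where 6.00% of all genes did. The DESeq2 Wald test also called 0 members, where it called 1.93% of the genes to which it gave an adjusted p. It had 3 of 52 members with an unadjusted p under 0.05, where 980 of 16655 genes did. In edgeR on genes with at least 5 CPM in 2 libraries, 0 of 45 members and 0.457% of all genes passed. The median log2 fold change of the members was 0.15, beside 0.05 over all genes tested. The knockout was the highest of the 3 libraries in 19 members (37.3%, where 38.0% of all genes were) and the lowest in 11 (21.6%, where 31.1% were), and in the other 21 it lay between the controls. Against control 6 alone it was higher in 28 of 51 members, and against control 5 alone in 31. In the 46 members with a mean level of at least 5 CPM, the knockout stood at least 1.5-fold above both controls in 6 (where 9.56% of genes at that level did) and at least 1.5-fold below both in 2 (4.35%, where 11.4% did). The 6 were Eed, Bmi1, Dot1l, Kat2a, Hdac2 and Dnmt1, and the 2 were Crebbp and Dnmt3b. The member not tested, Ring1, had too few reads.

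**Figure D1:**
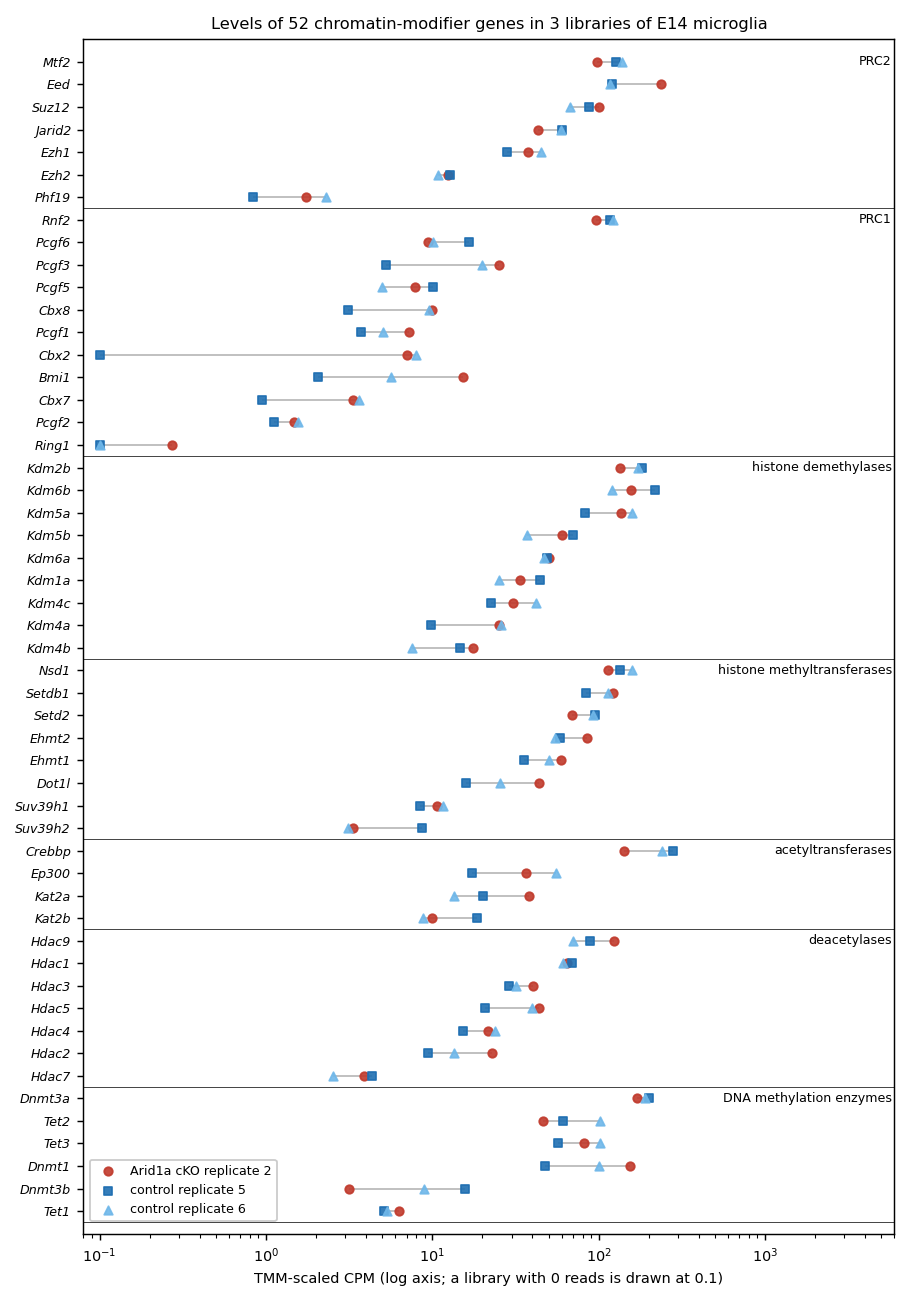
TMM-scaled CPM (log axis) of the 52 genes in the knockout library (circles), control 5 (squares) and control 6 (triangles), grouped by role and ordered by control mean. Grey lines join the lowest and highest library of a gene. Eed, Bmi1 and Dnmt1 have the knockout to the right of both controls, Crebbp and Dnmt3b to the left, and Cbx2 has 0 reads in control 5.

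Among PRC2 genes the scaffold Eed stood apart from the other subunits. Eed, which binds the methylated histone tail and activates the enzyme, had 4319 reads in the knockout, 2158 in control 5 and 1579 in control 6. On the CPM scale that is 236 in the knockout (exact Poisson interval 229 to 244) against 121 and 117 in the controls, whose mean was 119 ± 2.50 (SD, n = 2). The 2 controls thus lay close together and the knockout outside them. The log2 fold change was 0.99 (SE 0.35, edgeR adjusted p = 0.713). Eed lies on chromosome 7 (ENSMUSG00000030619, 89954654 to 89980983, minus strand, GRCm38), and an exon of the opposite-strand gene E230029C05Rik covers 6.82% of its exon bases, whose reads an unstranded library cannot tell apart. The 250 bases before its RefSeq transcription start (GRCm38.p6, chr7:89980977-89981226, minus strand) are printed with each CG in capitals, the dinucleotide that DNA methyltransferases modify and that the Kdm2b form of PRC1 binds when unmethylated. It holds 12.
Eed: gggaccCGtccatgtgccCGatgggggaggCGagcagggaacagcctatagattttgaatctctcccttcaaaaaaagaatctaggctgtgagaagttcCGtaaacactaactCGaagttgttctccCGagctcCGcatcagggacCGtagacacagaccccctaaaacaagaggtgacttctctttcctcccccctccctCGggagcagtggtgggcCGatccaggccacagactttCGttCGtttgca

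The partner Suz12, which anchors PRC2, had 101 CPM in the knockout against 87.2 and 67.5, a log2 fold change of 0.38 (SE 0.40). Both catalytic subunits lay between the controls: Ezh1 had 37.5 CPM against 28.2 and 45.3, and Ezh2 had 12.4 against 12.7 and 10.9. Per kilobase of exon, Ezh1 was above Ezh2 in every library, at 5.04 against 1.85 CPM per kilobase in the knockout and at means of 4.94 against 1.77 in controls. Ezh2, the form known from dividing cells, made up 24.8% of the reads of the pair in the knockout, 31.1% in control 5 and 19.4% in control 6, so the knockout share lay inside the control range. Of the accessory subunits that guide PRC2 to CpG-rich DNA, Jarid2 and Mtf2 were lowest in the knockout. Jarid2 had 42.9 CPM against 60.5 and 59.7 (log2 fold change -0.49, SE 0.43) and Mtf2 had 97.6 against 127 and 137 (log2 fold change -0.44, SE 0.38). Phf19, another accessory subunit, had 32, 15 and 31 reads in the knockout, control 5 and control 6, and its log2 fold change of 0.16 had an SE of 1.94. PRC2 subunits did not move in 1 direction. The knockout was highest in 2 of the 7 (28.6%, where 38.0% of all genes were), lowest in 2 (28.6%, where 31.1% were) and between the controls in 3.

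In PRC1 the ligase gene Rnf2 differed little between libraries, while partner subunits varied between the 2 controls. Rnf2 had 96.1 CPM in the knockout against 118 and 122 (log2 fold change -0.32, SE 0.38, adjusted p = 1.00 in edgeR). Its paralog Ring1 had 5 reads in the knockout and 0 in each control. The 5 reads are 0.274 CPM, with an exact Poisson interval of 0.0889 to 0.639. That interval includes 0.195 CPM, the mean level of the 3 reads per control library that a count of 0 allows. A difference in Ring1 thus cannot be told from counting error. Of the Rnf2 and Ring1 reads together, Ring1 made up 0.284% in the knockout (exact binomial interval 0.0923% to 0.662%).

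Bmi1 showed the highest fitted fold change of the members. Bmi1, the Pcgf subunit known for silencing the Cdkn2a locus and for stem cell self-renewal, had 278 reads in the knockout, 37 in control 5 and 76 in control 6, or 15.2, 2.07 and 5.63 CPM. The knockout was above both controls, but the controls themselves differed 2.72-fold, and the log2 fold change of 1.98 (SE 0.91) did not pass (edgeR, adjusted p = 0.863). Its close paralog Pcgf2, also called Mel18, had 27, 20 and 21 reads in the same order. Pcgf2 thus made up 8.85% of the pair's reads in the knockout (exact binomial interval 5.91% to 12.6%), 35.1% in control 5 (22.9% to 48.9%) and 21.6% in control 6 (13.9% to 31.2%), below both controls. Bmi1 lies on chromosome 2 (ENSMUSG00000026739, 18677018 to 18686629, plus strand, GRCm38), and the 250 bases before its RefSeq start (chr2:18676768-18677017, plus strand, GRCm38.p6) hold 21 CG, again in capitals.
Bmi1: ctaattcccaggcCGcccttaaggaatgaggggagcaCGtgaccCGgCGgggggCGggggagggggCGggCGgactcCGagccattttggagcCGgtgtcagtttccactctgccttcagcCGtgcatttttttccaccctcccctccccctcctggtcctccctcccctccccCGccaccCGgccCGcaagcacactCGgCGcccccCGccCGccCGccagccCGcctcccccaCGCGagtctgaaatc

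In Pcgf3, Cbx2, Cbx7 and Cbx8, control 5 was low and the knockout was near control 6. Pcgf3 had 25.1 CPM in the knockout, 5.25 in control 5 and 19.9 in control 6. Cbx2, a chromodomain subunit that compacts nucleosomes, had 128 reads in the knockout, 0 in control 5 and 107 in control 6, so it was near level between the knockout and control 6. Cbx8 had 182, 56 and 129 reads and Cbx7 had 61, 17 and 49. Cbx2 and Cbx8 are neighbours on chromosome 11, 5.03 kb apart. Control 5 was the lowest library in 7 of the 10 tested PRC1 members (70.0%), where it was lowest in 40.5% of all genes tested. The median PRC1 log2 ratio was accordingly 1.29 over control 5 and -0.0049 over control 6. Among the Pcgf subunits that define the variant complexes, Pcgf1 had 7.28 CPM against 3.74 and 5.04, Pcgf5 had 7.83 against 10.1 and 4.96, and Pcgf6 had 9.47 against 16.6 and 10.1. None of these passed the test, and with standard errors of 0.73 or more on the log2 scale, apart from Rnf2, only large differences could have.

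**Figure D2:**
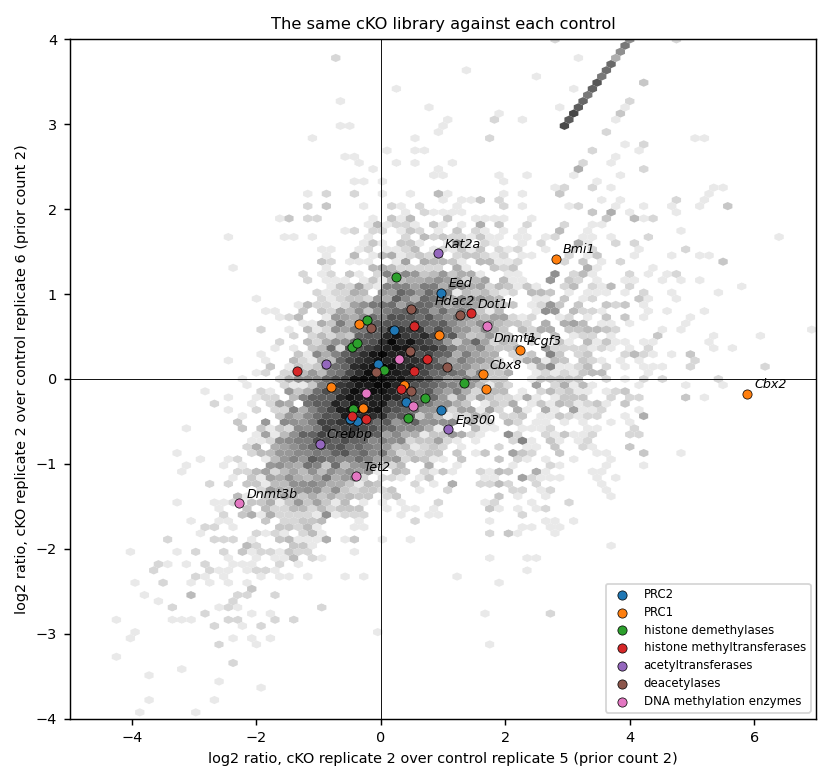
Log2 ratio of the knockout library over control 5 (horizontal) and over control 6 (vertical), with a prior count of 2. Coloured points are the 51 tested members by role, and grey hexagons count all 15236 genes tested, darker for more genes on a log scale; both axes share the knockout library. Bmi1 and Dnmt3b lie away from 0 on both axes, while Cbx2 and Pcgf3 lie far from 0 against control 5 only.

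The authors' deposited tables set the knockout against 1 control at a time, and their marks differ between the 2 controls. In the authors' deposited table with control 5, 7 members carry the authors' mark as higher (Bmi1, Pcgf3, Cbx2, Cbx7, Cbx8, Dot1l and Dnmt1), or 13.5% of the members, where 21.7% of the table does. Dnmt3b is the 1 member marked as lower there, where 7.75% of the table is. In the authors' deposited table with control 6, Kat2a is the 1 member marked as higher, where 10.1% of the table is, and 0 members are marked as lower, where 8.60% is. No member is marked in both. The authors' mark was set wherever the deposited p-value was under 0.01 and the change over 3-fold, in all 17229 and all 17952 genes of the 2 tables. In the authors' deposited tables Bmi1 had a log2 fold change of 3.02 over control 5 and 1.55 over control 6, and the second is under 3-fold.

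Histone demethylases mostly lay between the controls. These enzymes remove methyl groups from lysines. In 6 of the 9 the knockout value was inside the control range, where it was in 4708 of all 15236 genes tested. That range was wide here: the median absolute log2 difference between the controls was 0.89, beside 0.58 over all genes tested. Kdm6b, the inflammation-induced eraser of the PRC2 mark and the most abundant of them per kilobase, had 158 CPM in the knockout, 218 in control 5 and 121 in control 6. Its X-linked relative Kdm6a, also called Utx and a partner of the Trithorax-type methyltransferases, was level at 50.5 CPM against 48.9 and 46.9 (log2 fold change 0.08, SE 0.44). Uty, the Y-linked copy of Kdm6a, had 46.3 CPM against 123 and 82.3, and Kdm5d, the Y-linked Kdm5 gene, had 15.0 against 22.8 and 21.4. Xist, the RNA that coats an inactive X and brings Polycomb to it, was looked up after its values were known. It had 79 reads in the knockout and 0 in each control. With the counting error of the 79 reads left out, that is 22.2-fold the 3 reads per control library that a count of 0 allows. An unstranded library cannot tell Xist reads from those of its antisense gene Tsix. The sex of the embryos is not given in the labels, so sex and genotype cannot be told apart here.

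Kdm2b, which carries a variant PRC1 to unmethylated CpG islands, was lowest in the knockout at 134 CPM against 183 and 171 (log2 fold change -0.41, SE 0.37). An exon of the opposite-strand gene Rnf34 covers 7.60% of its exon bases. Among the Kdm4 enzymes, which act on repressive and elongation-linked methylation, Kdm4a had 25.02 CPM against 9.83 and 25.9, Kdm4b had 17.5 against 14.7 and 7.56, and Kdm4c had 30.7 against 22.6 and 42.1. Kdm4c made up 55.1% of the Kdm4a and Kdm4c reads in the knockout (exact binomial interval 51.9% to 58.2%), 69.7% in control 5 (65.8% to 73.4%) and 61.9% in control 6 (58.7% to 65.1%), so the knockout share was the lowest, although neither gene alone left the control range. The promoter-directed erasers Kdm5a and Kdm5b ran opposite to each other between the controls. Kdm5a had 136 CPM against 82.6 and 158, and Kdm5b had 60.4 against 70.5 and 37.3. Kdm1a, the flavin-dependent demethylase LSD1, had 33.8 CPM against 44.2 and 25.3.

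Among the histone methyltransferases the knockout was highest in 4 of 8 (where 38.0% of all genes were), lowest in 2 (where 31.1% were) and between the controls in 2. Dot1l, the only known methyltransferase of the H3 core lysine linked to elongation, had 797 reads in the knockout, 285 in control 5 and 344 in control 6. That is 43.6 CPM (exact Poisson interval 40.7 to 46.8) against 15.9 and 25.5, above both controls, with a log2 fold change of 1.08 (SE 0.53, edgeR adjusted p = 0.889). The G9a and GLP pair, which dimethylate a repressive lysine of H3, were both highest in the knockout. Ehmt2 (G9a) had 84.6 CPM against 58.3 and 54.9, and Ehmt1 (GLP) had 59.1 against 35.4 and 50.1. Setdb1, which silences retroelements, had 122 CPM against 84.1 and 114. Setd2 and Nsd1, both writers on another H3 lysine found in gene bodies, were lowest in the knockout. Setd2 had 68.9 CPM against 94.7 and 92.9 (log2 fold change -0.44, SE 0.40), and Nsd1, with the highest mean CPM of the group, had 115 against 135 and 159 (log2 fold change -0.36, SE 0.38). The heterochromatin enzymes Suv39h1 and Suv39h2 were inside the control range, the first with 10.7 CPM against 8.49 and 11.6 and the second with 3.34 against 8.71 and 3.11. For Suv39h1 14.6% and for Suv39h2 9.98% of exon bases lie under an opposite-strand gene.

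**Figure D3:**
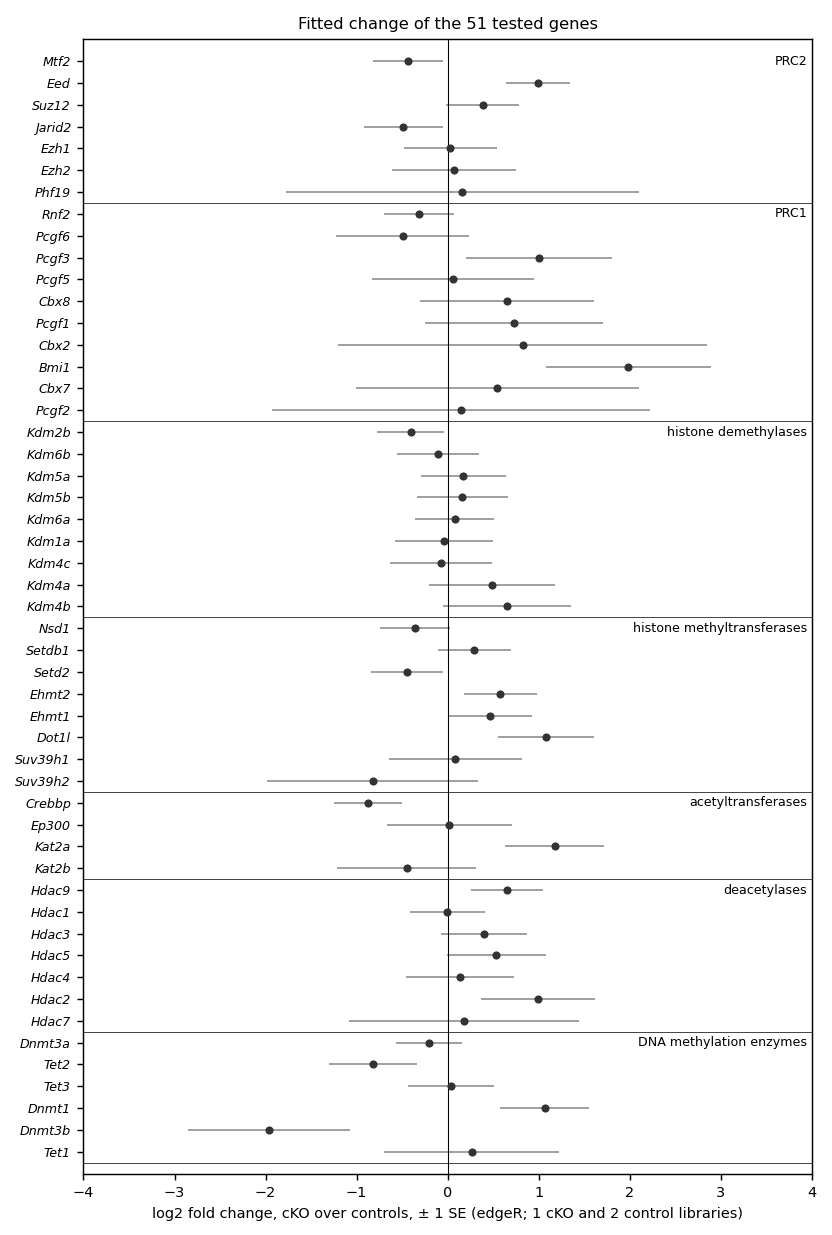
Fitted log2 fold change of the knockout over the controls for the 51 tested members (points) with 1 SE to each side (bars), grouped by role in the order of the plot of levels. Positive values mean higher in the knockout. Bmi1 has the highest value, 1.98, and Dnmt3b the lowest, -1.96, both with long bars, and Eed and Crebbp lie nearer 0 with shorter bars.

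Of the acetyltransferases, the CBP gene Crebbp was below both controls and Kat2a above both. Crebbp, a coactivator that acetylates histones at enhancers, had 2603 reads in the knockout, 5045 in control 5 and 3267 in control 6. On the CPM scale it stood at 142 (exact Poisson interval 137 to 148) against 282 and 242, with a control mean of 262 ± 28.1 (SD, n = 2). The log2 fold change was -0.88 (SE 0.38), with an unadjusted p of 0.0475 and an adjusted p of 0.821 (edgeR). Its paralog Ep300 varied 3.22-fold between the controls and had 36.8 CPM in the knockout against 17.3 and 55.5. Crebbp gave 79.5% of the reads of the pair in the knockout, 94.2% in control 5 and 81.3% in control 6, and per kilobase of exon it was above Ep300 in each library.

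The Gcn5 and Pcaf pair, the catalytic subunits of the SAGA coactivator, had a read share -22.9 percentage points from the control mean in the knockout, or -19.9 per kilobase of exon. Kat2a (Gcn5) had 693 reads in the knockout, 360 in control 5 and 182 in control 6, or 37.9, 20.1 and 13.5 CPM. The knockout was above both controls, with a log2 fold change of 1.17 (SE 0.55, edgeR adjusted p = 0.869). Kat2b (Pcaf) had 10.02 CPM against 18.5 and 8.82, inside the control range. Kat2b thus made up 20.9% of the pair in the knockout (exact binomial interval 18.2% to 23.7%), 48.0% in control 5 (44.2% to 51.8%) and 39.5% in control 6 (34.0% to 45.3%). A pseudogene named Kat2b-ps exists in the annotation, so reads of that gene could be divided.

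Of the 7 Hdac genes among the members, the knockout was highest in 4 (where 38.0% of all genes were), between the controls in 3 and lowest in 0 (where 31.1% were). Of deacetylases on the further acetylation list, looked up after their values were known, Sirt2, Sirt3 and Sirt7 were lowest in the knockout. Hdac10 and Sirt5 on that list were highest in it, and Hdac6, Hdac8, Hdac11, Sirt1 and Sirt6 lay between the controls. Hdac2, a catalytic subunit of the Sin3, NuRD and CoREST complexes, had 418 reads in the knockout, 169 in control 5 and 183 in control 6. That is 22.9, 9.44 and 13.6 CPM, above both controls, with a log2 fold change of 0.99 (SE 0.63, edgeR adjusted p = 0.959). Its partner and paralog Hdac1 was level at 64.9 CPM against 68.7 and 61.3 (log2 fold change -0.0029, SE 0.41). Hdac2 therefore made up 26.1% of the pair in the knockout (exact binomial interval 23.9% to 28.3%), 12.1% in control 5 (10.4% to 13.9%) and 18.1% in control 6 (15.8% to 20.6%). Hdac3, another class I enzyme, had 40.2 CPM against 29.1 and 31.9. The class IIa enzymes, signal-regulated partners of MEF2 factors, spanned a wide range, with control means of 5.41 CPM per kilobase of exon for Hdac9, 3.45 for Hdac5, 1.24 for Hdac4 and 0.509 for Hdac7. Hdac9 had 124 CPM against 88.5 and 70.1, the highest in the knockout, with a log2 fold change of 0.65 (SE 0.39). Hdac5 had 43.8 CPM against 20.8 and 39.7, Hdac4 had 21.6 against 15.4 and 23.9, and Hdac7 had 3.89 against 4.36 and 2.52. For Hdac4, exons of the opposite-strand gene Gm26720 cover 22.4% of exon bases.

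**Figure D4:**
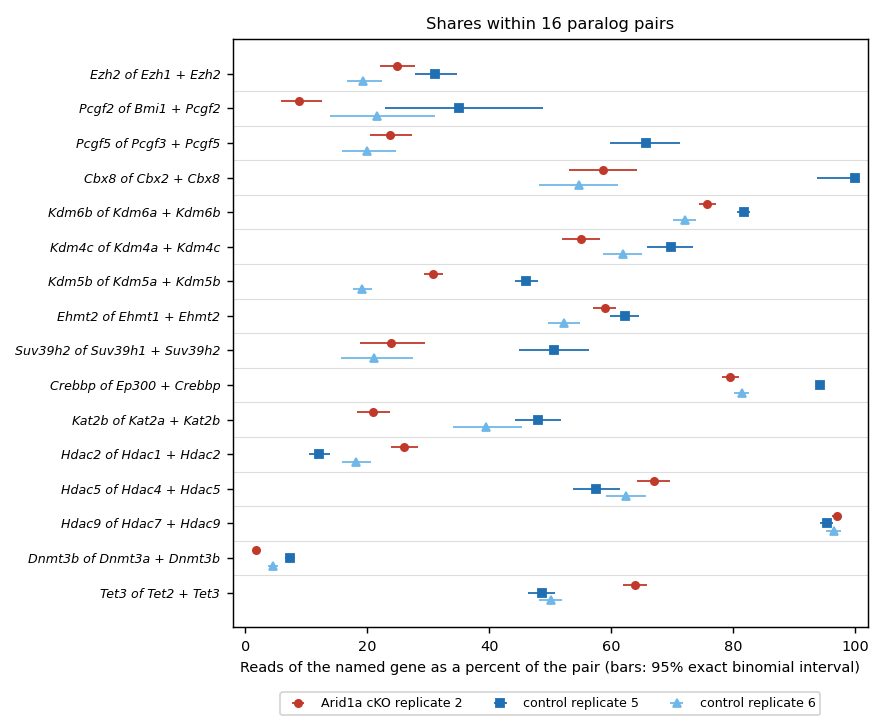
Reads of the second gene of each paralog pair as a percent of the pair (horizontal), in the knockout library (circles), control 5 (squares) and control 6 (triangles), with 95% exact binomial intervals that cover counting error only. The Kat2b, Kdm4c and Pcgf2 shares are lowest in the knockout, the Hdac2 and Tet3 shares highest. The pair of Rnf2 and Ring1, with 0 Ring1 reads in both controls, is not drawn.

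The enzymes of DNA methylation went in different directions. Dnmt1, which copies methylation at the replication fork, had 2836 reads in the knockout, 855 in control 5 and 1358 in control 6. It stood at 155 CPM (exact Poisson interval 150 to 161) against 47.8 and 101, above both controls. The controls differed 2.11-fold, and the log2 fold change of 1.07 (SE 0.49) did not pass (edgeR, adjusted p = 0.863). Uhrf1, which recruits Dnmt1 to hemimethylated DNA, had 113 CPM against 58.4 and 78.1. Beside this, 20 genes of S phase summed to 2625 CPM in the knockout, 3009 in control 5 and 2498 in control 6. Of the 19 tested, 5 were highest in the knockout (26.3%, where 38.0% of all genes were) and 7 lowest (36.8%, where 31.1% were). The other 7 lay between the controls, and the median log2 fold change was -0.17. Of the S phase genes Mcm2 had 245 CPM against 162 in each control and Ung had 72.3 against 53.0 and 21.04. The 24 genes of G2 and M phase had a median of -0.23 and summed to 2493, 3283 and 2874 CPM. The knockout was lowest in 14 of them (58.3%) and highest in 5 (20.8%). Hmmr was at 101.8 CPM against 229 and 194 and Cdc25c at 13.9 against 36.3 and 48.3. The part of the cell cycle in the Dnmt1 values was not tested.

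The de novo methyltransferases differed from each other. Dnmt3a, with the highest mean CPM of the group, had 170 CPM in the knockout against 201 and 191 (log2 fold change -0.20, SE 0.36). Dnmt3b, known mainly from early embryonic cells, had 58 reads in the knockout, 283 in control 5 and 121 in control 6, or 3.18, 15.8 and 8.97 CPM. The knockout was below both controls, with a log2 fold change of -1.96 (SE 0.89, edgeR adjusted p = 0.854), the lowest of the members. Dnmt3b made up 1.83% of the Dnmt3a and Dnmt3b reads in the knockout (exact binomial interval 1.39% to 2.36%), 7.30% in control 5 (6.498% to 8.16%) and 4.48% in control 6 (3.73% to 5.33%). An annotated pseudogene, Dnmt3a-ps1, could divide reads of Dnmt3a. Dnmt3b lies on chromosome 2 (ENSMUSG00000027478, 153649450 to 153687730, plus strand, GRCm38), and the 250 bases before its RefSeq start (chr2:153649199-153649448, plus strand, GRCm38.p6) hold 21 CG, in capitals as before.
Dnmt3b: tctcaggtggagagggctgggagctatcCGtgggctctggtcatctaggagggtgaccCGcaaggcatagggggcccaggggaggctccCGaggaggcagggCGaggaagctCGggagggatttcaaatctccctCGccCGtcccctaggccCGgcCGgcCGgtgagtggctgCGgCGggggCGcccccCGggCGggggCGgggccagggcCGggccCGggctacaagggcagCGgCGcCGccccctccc

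Tet enzymes oxidise methylcytosine and so lead to its loss, and the balance of Tet2 and Tet3 reads in the knockout lay outside that of both controls. Tet2, the Tet enzyme best known from blood cells, had 844 reads in the knockout, 1087 in control 5 and 1382 in control 6, or 46.2, 60.7 and 102.4 CPM. The knockout was the lowest, with a log2 fold change of -0.82 (SE 0.48, edgeR adjusted p = 0.955). Tet3 had 81.9 CPM against 57.3 and 103, inside the control range. Tet3 made up 63.9% of the pair in the knockout (exact binomial interval 62.0% to 65.9%), 48.6% in control 5 (46.4% to 50.7%) and 50.04% in control 6 (48.2% to 51.9%), so the controls lay close together and the knockout outside them. Tet1 was low throughout, at 6.30 CPM against 5.14 and 5.34. Of 17 paralog pairs compared within libraries, the share in the knockout lay outside both controls by at least 5 percentage points in 5, those of Bmi1, Kdm4a, Kat2a, Hdac1 and Tet2, and between the controls in 7. Per kilobase of exon there were 6, with the share of Dnmt3b in its pair with Dnmt3a at 5.73% in the knockout against 20.4% and 13.3%. With 1 knockout library these shares have no test. Pairs of other genes were not compared, so whether these counts of pairs are high or low cannot be told.

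Per kilobase of exon, which allows levels of different genes to be compared, Eed, Rnf2, Kdm6b, Mtf2, Crebbp and Hdac1 led the members in controls, at means of 31.0, 29.0, 24.4, 23.2, 19.3 and 18.9 CPM per kilobase. The control ranges of Rnf2 and Kdm6b overlapped, as did those of Kdm6b and Mtf2 and those of Crebbp and Hdac1, and that of Eed overlapped Kdm6b but not Rnf2. Eed was also first in the knockout library, at 61.8 CPM per kilobase, followed by Rnf2 at 23.3, Kdm6b at 22.7, Dnmt1 at 21.04 and Suz12 at 20.4. At the lower end, above Ring1, Phf19, Tet1, Cbx7 and Pcgf2 had means of 0.311, 0.339, 0.353 and 0.379 CPM per kilobase. Exon length here is that of all annotated exons of a gene, so a gene with long alternative exons is understated.

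Most promoter windows at hand for the members were rich in CG. RefSeq windows of 300 bases (GRCm38.p6) were at hand for 44 of the 52 genes, 63 windows in all, and held a median of 28 CG against 7 over all 32851 windows. The GC box GGGCGG, searched on both strands, was in 68.3% of the members' windows and in 35.7% of all windows. CCAAT was in 33.3% against 37.4%, and TATAAA in 3.17% against 13.6%, both on either strand. In the windows of the genes whose sequences are printed there were 17 CG for Eed, 23 for Bmi1 and 30 for Dnmt3b. Not all windows were: the 2 of Hdac9 held 3 and 0 CG, and those of Kdm4c held 0 and 28. These windows say nothing of binding. The 32851 windows compared cover 27025 genes, with or without values here, and genes at like levels were not compared apart. By position, 8 of the 52 genes lie on chromosome 11 and 5 on chromosome 2.

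Further genes of the same pathways did not pass either. Of 131 tested genes on 5 lists, 0 passed (edgeR, 0.0394% of all genes), with 5 at an unadjusted p under 0.05, where 6.00% of all genes were. The DESeq2 Wald test called 0. Of the 24 other Polycomb genes the knockout was highest in 9 (37.5%, where 38.0% of all genes were) and lowest in 9 (37.5%, where 31.1% were). Their median log2 fold change was 0.15, beside 0.05 over all genes tested. Asxl1, a cofactor of the H2A deubiquitinase Bap1, had 50.3 CPM against 22.9 and 24.1, and the corepressor gene Lcor had 18.3 against 34.1 and 32.4. Of the 22 Trithorax and COMPASS genes the knockout was highest in 9 (40.9%) and lowest in 7 (31.8%), with a median of 0.02. Kmt2d, an enhancer methyltransferase, had 75.3 CPM against 35.1 and 53.4, while Setd1b, a promoter methyltransferase, had 35.6 against 73.3 and 63.3. Kmt2a (MLL1) had 51.8 CPM against 47.8 and 58.1, inside the control range. Other writers and erasers of histone methylation had a median of 0.10, with Uty, given above, and Kdm7a, a demethylase at 65.9 CPM against 151 and 105, having the smallest p. The acetylation list had a median of 0.08, with Tbl1xr1, a subunit of corepressor complexes, at 41.5 CPM against 103 and 87.6. Other DNA methylation genes and methyl readers had a median of 0.16, with the methyl-CpG binding proteins Zbtb38 at 90.8 against 259 and 165 and Zbtb4 at 35.0 against 79.9 and 52.8.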

How the data were processed

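Per the labels' protocols, sorted microglia gave total RNA for Illumina TruSeq libraries, which carry no strand information. HTSeq 0.6.0, TopHat2 2.0.12, Bowtie2 2.2.3 and the build mm9 are named in the submitters' processing notes. The deposited positions are not of that build: 89.9% of 18480 gene IDs found in GENCODE M21 had an identical position on GRCm38, the build of coordinates given here. The authors deposited 2 tables, each with raw counts per gene for the knockout and 1 control, a column that the deposited values show to be CPM with 0 reads replaced by 0.5 reads, a ratio (the fold change) with its log2, and p-values whose test is not given in the sources used here. Knockout counts were identical in both tables. Only the counts were tested; the authors' mark and log2 values are quoted by name.

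Counts of 16655 genes in both tables were tested with edgeR 4.0.16 in R 4.3.3 (filterByExpr, TMM factors 1.059, 0.9627 and 0.9809, quasi-likelihood F test, Benjamini-Hochberg over 15236 genes, two-sided, threshold 0.05). The fit has 1 residual degree of freedom and takes the knockout to vary as the controls do. Since no label says that samples are separate animals, a p-value here reflects the spread between libraries, which may be technical. The common dispersion was 0.438. SE is the fold change over the root of its F statistic. Intervals are at the 95% level and, like floors of 3 reads, cover counting error only. Alternatives were other scaling factors and filters, DESeq2 1.42.0, genes in either table, leaving out each control, and pair shares per kilobase. The members, lists and naming rule were chosen with earlier results of these data known. Genes given in full pass the test, lie at least 1.5-fold outside both controls at a mean of 5 CPM, have the highest mean CPM of their role, or belong to a pair whose share lies 5 points outside both controls; of each other list the 2 genes with the smallest p at 5 CPM are named, except that 1 such gene is not reported here. Other members and a few partner genes are given for completeness.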

Additional observations from a re-analysis of the deposited data

How the results depend on the processing

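With upper-quartile factors, DESeq2 size factors, no low-count filter, a filter of 5 CPM in 2 libraries, genes of either table or the DESeq2 Wald test, 0 members and 0 of the further pathway genes were called, as in the fit reported, and the smallest adjusted p of a member ranged from 0.334 to 0.850. Over all genes, calls went from 6 to 0 with either other set of scaling factors or with no filter, to 10 with genes of either table, to 44 with the 5 CPM filter and to 222 with the DESeq2 Wald test. Of 119 values of named members under these alternatives, 117 kept their direction and side of the threshold. The other 2 were Hdac1, at -0.0029 as reported, which had log2 fold changes of 0.0049 with the 5 CPM filter and 0.0059 with genes of either table. Leaving out 1 control in turn leaves 1 library against 1 and no test. The number of members higher in the knockout was then 28 to 31, the number lower 20 to 23, and the median log2 fold change 0.0899 to 0.41, the higher median against control 5 alone. For Bmi1 the log2 fold change was 1.43 without control 5 and 2.88 without control 6, for Dnmt1 0.63 and 1.70, and for Dot1l 0.78 and 1.46. Named members with the knockout between the controls had opposite signs in these settings, which the 119 values leave out. In the same order Kdm6b had 0.38 and -0.47, Kdm4a -0.05 and 1.35, and Kdm4c -0.46 and 0.44. Kat2b had 0.18 and -0.88, Tet3 -0.32 and 0.52, Pcgf2 -0.07 and 0.41, and Hdac1 0.08 and -0.08. Shares per kilobase changed the direction of none of the 5 pairs named for their share, and added that of Dnmt3a and Dnmt3b. No paired analysis was possible because the genotypes share no replicate number. The 1 knockout library and the spread between the controls limit what could be detected: the median SE of a member was 0.54 on the log2 scale.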

Other observations

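Genes that Polycomb is known to hold silent mostly had no values here, and those that did had 93 reads or fewer in any library with a value. Of 41 Hox, Cdkn2a and Cdkn2b genes looked up, 4 had values here. Hoxb4 had 29 reads in the knockout, 3 in control 5 and 10 in control 6, and Hoxb2 had 7 reads in the knockout and 0 in each control. Cdkn2b, a cell cycle inhibitor, had 0 reads in the knockout against 22 and 41. Hoxa9 had 0 reads in the knockout and 93 in control 5 and was not analysed for control 6. The 2 tested genes of this list did not pass (edgeR, adjusted p = 0.821 for Cdkn2b and 1.00 for Hoxb4).

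Germline genes whose silencing outside the germline depends on DNA methylation were also low. Of 20 looked up, 11 had values, and their summed level was 10.2 CPM in the knockout, 30.7 in control 5 and 19.6 in control 6. Ddx4, a germ cell helicase, had 10 reads in the knockout against 166 and 33, and Hormad1, a meiotic chromosome protein, had 0 against 56 and 8. Dazl, a germ cell RNA-binding protein, went the other way with 19 reads against 0 in each control. None of the 8 tested passed (edgeR, smallest adjusted p = 0.863, 0 at an unadjusted p under 0.05), and the knockout was lowest in 5 of them, where it was lowest in 31.1% of all genes tested.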
